A study of Mus musculus with 6 samples.

Results

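Klf4, Zeb1, Grhl2 and Esrp1 are regulators of the epithelial and mesenchymal states. They were chosen by name as 4 rows among the 53647 features of the deposited table, and all 4 identifiers were found. D2.OR is a mouse mammary carcinoma line whose cells disseminate in mice and tend to stay dormant. The first group, shSLX4IP, carried a lentiviral short hairpin RNA against Slx4ip, a partner of the nuclease scaffold SLX4 with a role in telomere maintenance (n = 3). The second group, Scram, carried a scrambled hairpin (n = 3). Both groups had been selected with puromycin after transduction and were grown for 7 days on and in Cultrex, a basement membrane extract, before total RNA was sequenced as a stranded poly(A) library. The labels name a hairpin against SLX4IP without its sequence, give no other treatment, and call the replicates biological without naming separate cultures. The p-values therefore measure the spread between these libraries, which may in part be technical. In bulk RNA, fewer cells of a type and less RNA per cell cannot be told apart.

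Epithelial cells hold to each other through E-cadherin junctions, and mesenchymal cells are loosely attached and motile. ZEB1 is a zinc finger and homeodomain factor that binds E-box motifs, represses E-cadherin and other epithelial genes, and is held down in epithelial cells by GRHL2 and by the miR-200 family. GRHL2, a grainyhead factor, activates junction genes, and ESRP1 is an RNA-binding protein that gives messages such as that of Fgfr2 their epithelial splice form. KLF4 is a Krüppel-like zinc finger factor of epithelial differentiation and pluripotency that activates E-cadherin in mammary epithelial cells.

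The values are normalised counts, that is, reads per gene divided by 1 size factor per library. The table names the libraries of a group A, B and C. The 6 libraries held 5433573 to 6693111 recovered reads. Many features of the table cannot be read as the gene their identifier names, because genes that every cell uses, such as Actb, Eef1a1 and Rplp0, are listed at 0. Gene names are therefore used only in 4 chromosome starts where genes of high value lie close together among others, called placed below. They are chromosome 4 up to 59904737, chromosome 6 up to 30509783, chromosome 15 up to 38692446 and chromosome 18 up to 10818704, in GRCm38. Features of the mitochondrial chromosome also count as placed below, except where nuclear genes are stated, and none of them is named. All 4 regulators lie in these chromosome starts. Slx4ip, the targeted gene, lies outside and was listed at 0 in all 6 libraries, so it gave no check of the labels. Scram A stood apart from Scram B and C, with 8464 features above 0 against 10947 and 10548. In Scram A 1 read had a normalised value of 1.46, against 0.934 and 0.911 in Scram B and C. Its 6110599 recovered reads were close to the 6112569 of Scram B. The values of each regulator are given with and without Scram A, as are those of other genes whose call changes without it. Of the markers of the labelled cell type, 1 of 9 luminal markers (Esrp1) and 1 of 5 basal markers (Cav1) were placed. Of 7 fibroblast markers 1 (Col1a2) was placed, and of 5 endothelial and 5 immune markers 0 and 0 were placed.

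Klf4 fell to a small fraction of its Scram value in the shSLX4IP libraries, and it was the only one of the 3 tested regulators to pass the test. Zeb1 was higher in each shSLX4IP library than in any Scram library but missed the threshold with all 6 libraries. Grhl2 and Esrp1 had low values in both groups, and Esrp1 held at most 10 reads in any library. The test was limma on log2(value + 1), with Benjamini-Hochberg adjustment over the 8127 features whose mean reached 10, and a threshold of 0.05. By that test 23.0% of all features and 40.3% of the 462 placed features passed in either direction, so a call for 1 of the 3 tested regulators is close to the background. Esrp1, with a lower mean, was not tested.

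**Figure D1:**
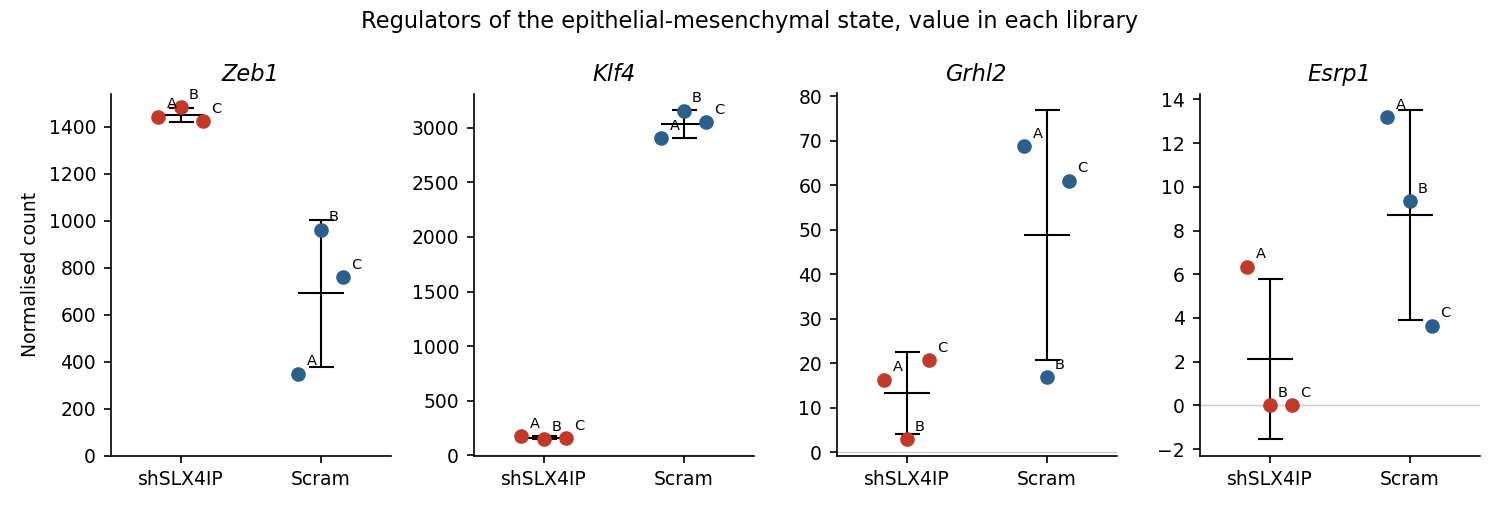
Normalised count of each regulator in each library, with shSLX4IP in red on the left and Scram in blue on the right. Letters name the libraries, horizontal lines are means and bars are SD (n = 3 each). The Klf4 and Zeb1 groups do not overlap, those of Grhl2 and Esrp1 do, and Scram A is the lowest Zeb1 library at 349.

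Klf4 (ENSMUSG00000003032.9, chromosome 4, 55527143 to 55532466, minus strand) had normalised counts of 175, 147 and 158 in shSLX4IP A, B and C, against 2905, 3157 and 3051 in Scram A, B and C. The groups were far apart and tight, and Scram A lay with the other Scram libraries. The means were 160 ± 13.8 in shSLX4IP and 3038 ± 127 in Scram (SD, n = 3 each), a ratio of 19.0 of Scram over shSLX4IP. These values rest on 193, 151 and 199 reads in shSLX4IP and on 1984, 3380 and 3347 reads in Scram. The log2 fold change of shSLX4IP over Scram was -4.24, with a 95% interval from -4.61 to -3.86 (limma adjusted p = 0.000203). Without Scram A it was -4.27 (adjusted p = 0.000111). Among the 462 placed and tested features it ranked 24th from the lowest fold change. It kept its call in 17 of 17 other settings, with log2 fold changes from -4.30 to -4.01. No exon of Klf4 overlaps an exon of another annotated gene.

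The promoter of Klf4 is shown because Klf4 is the regulator with a called change. The sequence is that of RefSeq on GRCm38.p6, chr4:55532426-55532725, minus strand, and runs from 250 bases before to 50 bases after the start of the gene. Capitals mark matches to the GC box GGGCGG, a motif of Sp and Krüppel-like factors, or to its complement CCGCCC.
Klf4: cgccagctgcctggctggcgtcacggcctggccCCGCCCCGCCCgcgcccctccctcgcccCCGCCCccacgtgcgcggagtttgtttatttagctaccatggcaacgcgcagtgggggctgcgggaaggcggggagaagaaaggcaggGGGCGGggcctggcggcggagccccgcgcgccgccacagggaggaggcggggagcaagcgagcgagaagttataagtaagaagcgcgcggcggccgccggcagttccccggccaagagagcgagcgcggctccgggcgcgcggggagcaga
The window is 74.3% G and C and holds 4 matches, of which the first pair shares 1 base. At least 1 such match occurs in 35.7% of the 32851 promoter windows of the RefSeq table. The ZEB and SNAIL E-box CACCTG was not among its letters, and 20.2% of all windows hold it. The grainyhead motif AACNGGTT was not found either, against 2.09% of all windows, nor was the Krüppel-like motif CACCC, against 57.5%. Both strands were searched for each motif. The letters describe this window only.

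Zeb1 (ENSMUSG00000024238.16, chromosome 18, 5591860 to 5775467, plus strand) had its higher values in shSLX4IP. Its normalised counts were 1442, 1484 and 1423 in shSLX4IP A, B and C, against 349, 961 and 760 in Scram A, B and C. Every shSLX4IP library was above every Scram library, and the shSLX4IP libraries were close together while the Scram libraries were spread. Groups that do not overlap were found in 67.1% of the placed features tested and in 53.5% of all features. The means were 1450 ± 30.9 in shSLX4IP and 690 ± 312 in Scram (SD, n = 3 each). The log2 fold change was 1.19, with a 95% interval from 0.23 to 2.16, and it did not pass after adjustment (limma adjusted p = 0.0798).

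The Zeb1 call depended on the libraries and settings used, and it passed in 6 of 17 other settings. Without Scram A the log2 fold change was smaller, 0.76 with a 95% interval from 0.45 to 1.07, and it passed (adjusted p = 0.00714). Without Scram A 42.7% of all features passed, 23.3% higher and 19.4% lower. Of the placed features 65.2% then passed, 29.0% higher and 36.1% lower, so the background rose as well. It also passed without Scram B (1.49, adjusted p = 0.0487), and its values without Scram C (1.32) or without a shSLX4IP library (1.18 to 1.21) did not. Scram A held 238 reads of Zeb1, against 1029 and 834 in Scram B and C. On the log2(value + 1) scale Scram A was lower than the mean of Scram B and C by a difference of -1.29. Placed nuclear genes, without those of low mean value, were split by exonic length into groups of 118, 117 and 118. In the longest group the median of the same difference was -0.27, with 10% of its genes below -1.06, and 6 of them were lower than Zeb1. Zeb1 has 10266 exonic bases. In the group of the shortest exonic length, to which Klf4 belongs with 3049 bases, the median was 0.84 and Klf4 had -0.10. The part of transcript length in these results was tested only by removing each library's trend with exonic length. Klf4 then had a log2 fold change of -4.01 and Zeb1 one of 0.98 that passed (adjusted p = 0.0155).

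Grhl2 (ENSMUSG00000022286.17, chromosome 15, 37233036 to 37363569, plus strand) had normalised counts of 16.3, 2.93 and 20.7 in shSLX4IP A, B and C, against 68.8, 16.8 and 61.1 in Scram A, B and C. Scram B lay among the shSLX4IP libraries, so the groups overlap. The reads behind these values were 18, 3 and 26 in shSLX4IP and 47, 18 and 67 in Scram. The log2 fold change of -1.90 had a 95% interval from -4.13 to 0.32 and did not pass (limma adjusted p = 0.177). Without Scram A it was -1.55 (adjusted p = 0.265). Over 16 other settings it ran from -2.83 to -1.14 and passed in none, and the interval allows both a fall of several-fold and no change.

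Esrp1 (ENSMUSG00000040728.16, chromosome 4, 11331933 to 11386783, minus strand) had normalised counts of 6.34, 0 and 0 in shSLX4IP A, B and C, against 13.2, 9.34 and 3.65 in Scram A, B and C. These are 7, 0 and 0 reads in shSLX4IP and 9, 10 and 4 reads in Scram. The groups overlap, since shSLX4IP A was above Scram C. A count of 0 allows 3 reads, a normalised count of up to 2.93 in shSLX4IP B and 2.39 in shSLX4IP C, counting error only. The difference of the group means on the log2(value + 1) scale was -2.18, and -1.83 without Scram A, with no test at this level. With the filter on low values left out, the limma adjusted p was 0.243. A difference in Esrp1 was not detectable at this depth.

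**Figure D2:**
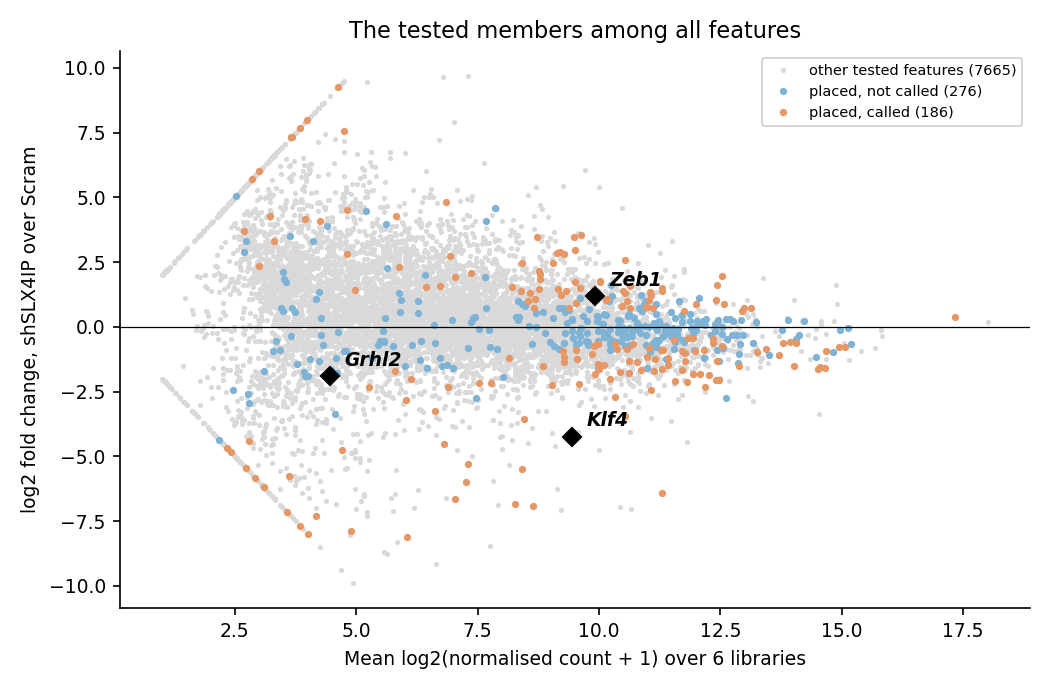
Log2 fold change of shSLX4IP over Scram against the mean log2 level over 6 libraries, 1 point per tested feature. Placed features are blue where not called and orange where called, other features are grey, and diamonds mark the 3 tested regulators. Klf4 lies at -4.24, Zeb1 above 0 at 1.19, and Grhl2 among features of low level.

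The order of Klf4 and Zeb1 differed between the groups. Per kilobase of exon, and as a level, Zeb1 had 141 ± 3.01, Klf4 52.6 ± 4.53, Grhl2 1.55 ± 1.07 and Esrp1 0.335 ± 0.581 in shSLX4IP (SD, n = 3). In Scram the order began with Klf4, at 996 ± 41.5, followed by Zeb1 at 67.2 ± 30.4, Grhl2 at 5.68 ± 3.26 and Esrp1 at 1.38 ± 0.761. Klf4 and Zeb1 did not overlap within either group, and the ranges of Grhl2 and Esrp1 overlapped in both, although Grhl2 was the higher of that pair within each of the 6 libraries. Among 569 placed nuclear protein-coding genes the level per kilobase of Klf4 ranked 302 in shSLX4IP and 80 in Scram. Zeb1 ranked 250 in shSLX4IP and 282 in Scram. The median of those genes was 82.2 per kilobase in shSLX4IP and 61.2 in Scram.

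A ratio of counts within a library does not depend on its size factor. It can still carry a library's trend with exonic length, such as that of Scram A, since Klf4 has 3049 exonic bases and Zeb1 10266. The ratios were not corrected for that trend. The ratio of Klf4 to Zeb1 counts was 0.121, 0.0993 and 0.111 in shSLX4IP A, B and C, against 8.34, 3.28 and 4.01 in Scram A, B and C. Every Scram library held more Klf4 than Zeb1 reads and every shSLX4IP library fewer. On the log2 scale the mean ratio was -3.18 ± 0.14 in shSLX4IP and 2.26 ± 0.71 in Scram (SD, n = 3 each), and 1.86 in Scram B and C alone. These ratios are descriptions of 2 genes and were given no test.

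**Figure D3:**
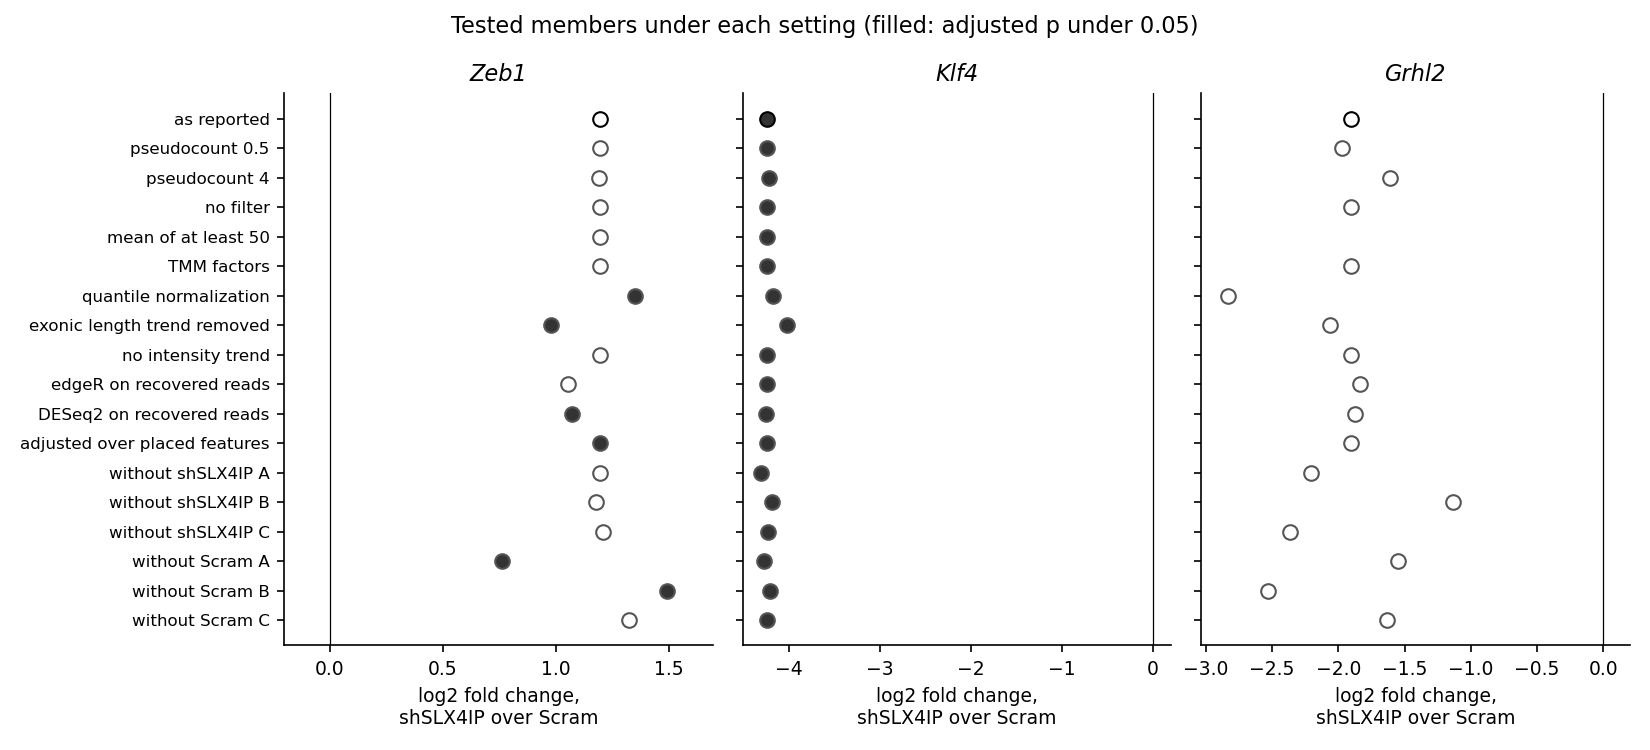
Log2 fold change of shSLX4IP over Scram for Zeb1, Klf4 and Grhl2 under each setting, with a horizontal scale for each gene. Filled points have an adjusted p under 0.05. Klf4 is filled in every row between -4.30 and -4.01, Grhl2 in none, and Zeb1 in 6 of the alternative rows, among them without Scram A, but not in the row of the reported value.

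Exons of Zeb1, Grhl2 and Esrp1 overlap annotated genes on the other strand, and whether the counting used strand is stated in no source used here. The partner of Zeb1, Gm10125, had 0, 3 and 8 reads in shSLX4IP and 1, 0 and 0 in Scram. That of Grhl2, Gm16136, was listed at 0 in all 6 libraries. The partner of Esrp1, Gm26663, is not analysed here.

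The neighbours of each regulator show the levels on both sides of it. Esrp1, at a few reads, lies between Dpy19l4 and Virma, whose starts are 64.6 and 99.2 kb away. Dpy19l4 averaged 2858 ± 133 in shSLX4IP and 1305 ± 515 in Scram (SD, n = 3 each), a log2 fold change of 1.22 that fell just short of the threshold (limma adjusted p = 0.05002) and passed without Scram A at 0.85 (adjusted p = 0.00405). Virma, a subunit of the m6A methyltransferase complex, averaged 3929 ± 245 in shSLX4IP and 4262 ± 712 in Scram and did not pass (adjusted p = 0.632). Its small difference of -0.11 changed sign to 0.02 without Scram B and to 0.42 after quantile normalization. Ints8, of the Integrator complex, was next to Dpy19l4 and likewise did not pass (-0.11, adjusted p = 0.573), with 0.35 after quantile normalization. Fsbp, beyond Virma, averaged 194 ± 41.5 in shSLX4IP and 28.3 ± 25.3 in Scram (SD, n = 3 each) and did not pass (3.97, adjusted p = 0.118). Its log2 fold change against Scram B and C alone was 2.16 and passed (adjusted p = 0.00364). Fsbp shares exonic bases with Rad54b on its own strand. On the other strand, Dpy19l4 shares exonic bases with Gm26663, also the partner of Esrp1, and Ints8 shares them with Ccne2.

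The nearest protein-coding genes of Grhl2 were Ywhaz and Zfp706 on one side and Ncald and Rrm2b on the other. Ywhaz, a 14-3-3 protein gene, averaged 9845 ± 110 in shSLX4IP and 27977 ± 3232 in Scram, and Zfp706 averaged 2573 ± 124 and 9744 ± 3212 in the same order of groups (SD, n = 3 each). Both fell, with log2 fold changes of -1.5003 for Ywhaz (limma adjusted p = 0.00107) and -1.87 for Zfp706 (adjusted p = 0.00486). On the other side, Ncald fell (-7.87, adjusted p = 0.00296) and Rrm2b, a ribonucleotide reductase subunit, rose (1.39, adjusted p = 0.00843). Zfp706, Ncald and Rrm2b share exonic bases with antisense genes, and Ncald with a sense one too.

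Klf4 lies in a stretch with few genes. Rad23b, a nucleotide excision repair gene whose start is 182 kb away, averaged 12857 ± 420 in shSLX4IP and 19164 ± 2072 in Scram (SD, n = 3 each) and fell by 0.57 on the log2 scale (limma adjusted p = 0.0254). Of 17 other settings 8 ended that call, including the removal of Scram B (-0.51), of Scram C (-0.54) or of any 1 shSLX4IP library (-0.58 to -0.54). Its sign turned, to 0.13, after quantile normalization. Zfp462, a zinc finger gene 587 kb away, rose with 2385 ± 153 in shSLX4IP and 221 ± 68.5 in Scram (log2 fold change 3.47, adjusted p = 0.000914). Actl7a and Actl7b, testis actin-like genes on the other side, had at most 3.65 in any library. Beside Zeb1, Arhgap12 rose (0.76, adjusted p = 0.0325), but 7 of 17 settings ended the call, including the removal of Scram C (0.82) or of any 1 shSLX4IP library (0.65 to 0.83). Svil, of the actin-binding protein supervillin, had -0.90 and did not pass (adjusted p = 0.0540), while leaving out Scram A gave -1.16 and a pass (adjusted p = 0.000938). Kif5b, a kinesin heavy chain, had -0.66 (adjusted p = 0.176), and it too passed once Scram A was left out (-1.01, adjusted p = 0.000506). After quantile normalization Svil had -0.42 and Kif5b -0.12, with no call for either (adjusted p = 0.428 and 0.862). Zfp438 had 0.39 and did not pass (adjusted p = 0.285). Kif5b and Actl7b share exonic bases with antisense genes.

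**Figure D4:**
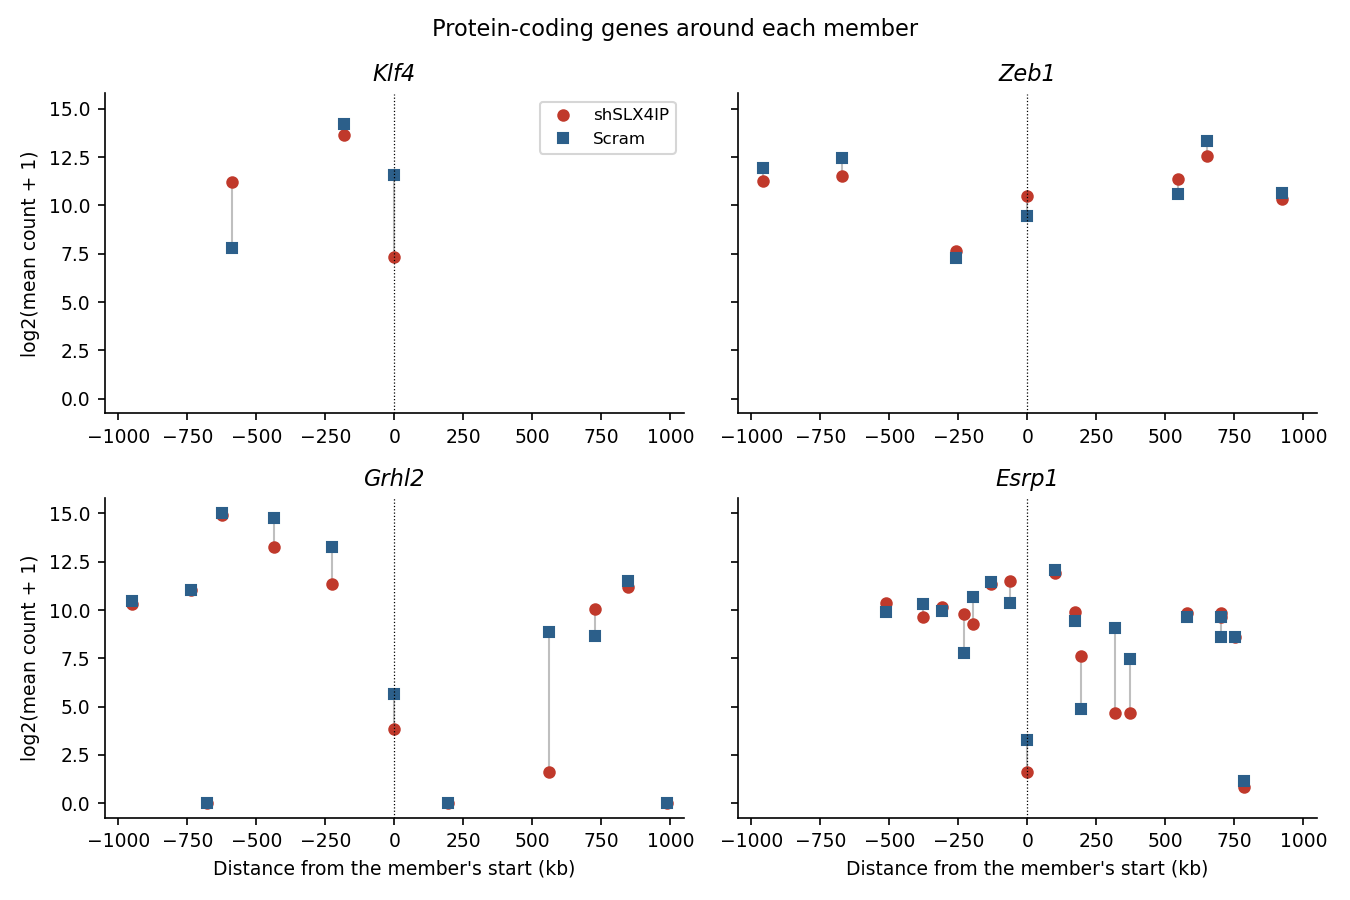
Level of protein-coding genes within 1000 kb of the start of each regulator, as log2(mean normalised count + 1), with shSLX4IP as red circles, Scram as blue squares and a grey line joining the pair. The horizontal axis is the distance in kb from the regulator, positive toward higher coordinates, and the dotted line marks the regulator. Grhl2 and Esrp1 are low beside most of their neighbours, and Zfp462 and Klf4 have opposite differences.

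The placed genes nearest to Klf4 in profile over the 6 libraries were Gem, Tbc1d2 and Car9, among 354 genes of a mean of at least 50. The measure was the root mean square difference of the log2 values after each gene was centred, 0.37, 0.37 and 0.42. Gem, a small GTP-binding protein of the RGK family, averaged 24.1 ± 12.5 in shSLX4IP and 535 ± 32.0 in Scram (SD, n = 3 each). Tbc1d2, a Rab GTPase-activating protein, averaged 102 ± 17.5 in shSLX4IP and 1203 ± 29.0 in Scram. Car9, a carbonic anhydrase, averaged 451 ± 19.2 in shSLX4IP and 4847 ± 332.6 in Scram. Their log2 fold changes were -4.53, -3.56 and -3.42, given with no test, since the genes were chosen for their likeness to Klf4 over these libraries. Car9 shares exonic bases with an antisense gene.

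The genes nearest to Zeb1 were Dpy19l4, Faxc and Cpne3, at 0.07, 0.08 and 0.11. Dpy19l4 is also the neighbour of Esrp1 described above. Faxc had 1908, 1791 and 1860 in shSLX4IP A, B and C, against 416, 1337 and 955 in Scram A, B and C. Cpne3, a copine that binds membranes with calcium, had 6897, 5889 and 6104 in shSLX4IP, against 1718, 4060 and 3554 in Scram. Their log2 fold changes were 1.19 for Faxc and 1.11 for Cpne3, and 0.71 and 0.73 against Scram B and C alone. The choice by likeness to Zeb1 fixes the low Scram A value and the direction of all 3 genes, so no test is given here and that of Dpy19l4 above adds nothing to Zeb1.

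Genes of the epithelial and mesenchymal programmes were listed in 6 groups with 125 genes in all. Only 24 were placed and 18 were tested, of which 5 rose, 6 fell and 7 did not pass. That share of 11 of 18 stands beside 17.3% of placed features called higher and 22.9% called lower, and the median log2 fold change of the 18 was 0.32 against -0.23 over placed features and 0.25 over all features. The count was 6 without any 1 shSLX4IP library, 7 without Scram C and 14 without Scram A. The lists were drawn up with some of these genes' results known, so the counts are no independent evidence.

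Of 25 epithelial junction, keratin and surface genes 2 were placed, and they moved in opposite directions. Cdh17, an intestinal-type cadherin, had 32.6, 24.4 and 15.9 in shSLX4IP A, B and C, against 151, 212 and 157 in Scram A, B and C. The groups were well apart, and it fell (log2 fold change -2.82, limma adjusted p = 0.00518). Epb41l4b, a FERM-domain protein of the band 4.1 family, averaged 1591 ± 47.9 in shSLX4IP and 215 ± 28.5 in Scram (SD, n = 3 each) and rose (2.89, adjusted p = 0.000475). E-cadherin, Epcam and the keratins lie outside the placed segments and are not read here.

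Of 27 mesenchymal structure and matrix genes 7 were placed and 4 were tested, with 1 higher and 2 lower. Col1a2, a chain of type I collagen and the placed fibroblast marker, averaged 271 ± 31.4 in shSLX4IP and 23243 ± 2627 in Scram (SD, n = 3 each) and fell by 6.42 on the log2 scale (limma adjusted p = 7.64e-05). Matn2, a matrilin, fell by 8.10 (adjusted p = 0.00286) and shares exonic bases with an antisense gene. Tpm2, the beta-tropomyosin of contractile actin filaments, had 1215, 1499 and 1556 in shSLX4IP A, B and C, against 256, 80.3 and 95.7 in Scram A, B and C. It rose (3.48, adjusted p = 0.00545), and by 3.997 without Scram A, its highest Scram library. Col15a1, a basement membrane collagen, averaged 44.0 ± 20.3 in shSLX4IP and 4.96 ± 6.37 in Scram and did not pass (adjusted p = 0.0587), but it did without Scram A (2.59, adjusted p = 0.0407) and without Scram B (4.45, adjusted p = 0.0244). It too has an antisense partner. Cdh6, Mmp16 and Sdc2 were listed at 0 or held a few reads. The part of other cell types or of a shift in cell state in these differences was not tested.

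Of 27 inducers and signal receptors 10 were placed and 8 were tested, with 3 higher and 2 lower. Klf10, a Krüppel-like factor induced by TGF-beta, had 2974, 2888 and 3052 in shSLX4IP A, B and C, against 1173, 1588 and 1636 in Scram A, B and C. It rose (1.03, limma adjusted p = 0.0112), in the direction opposite to Klf4, and its call was lost without any 1 shSLX4IP library (adjusted p = 0.0534 to 0.0575). Reck, a membrane inhibitor of matrix metalloproteinases, rose (1.31, adjusted p = 0.0437), but 8 of 17 other settings lost that call, among them the removal of Scram C (adjusted p = 0.1005) or of any 1 shSLX4IP library (0.123 to 0.149). Smo, the Hedgehog signal transducer, rose (0.72, adjusted p = 0.0321), but the removal of Scram C (adjusted p = 0.0937) or of any 1 shSLX4IP library (0.119 to 0.124) ended the call, as 2 more of the 17 settings did. Cav1, the caveolin among the basal markers, fell (-0.61, adjusted p = 0.00847), a call lost in 6 settings, with -0.02 after quantile normalization and adjusted p = 0.0522 to 0.0806 without Scram C or any 1 shSLX4IP library. Mtdh, metadherin, fell (-0.74, adjusted p = 0.0202), a call lost in 6 settings, with -0.20 after quantile normalization and adjusted p = 0.0544 to 0.0766 without the same libraries.

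The TGF-beta receptor Tgfbr1, an upstream input to Zeb1, averaged 1793 ± 104 in shSLX4IP and 1385 ± 336 in Scram (SD, n = 3 each) and did not pass (0.40, limma adjusted p = 0.228), nor against Scram B and C alone (0.18, adjusted p = 0.126). Met, the receptor of hepatocyte growth factor, had 0.49 (adjusted p = 0.179), against 0.27 without Scram A (adjusted p = 0.169) and 0.98 after quantile normalization, and it passed in none of these. The kinase gene Rock1 had 0.24 (adjusted p = 0.609), and its sign turned to -0.14 without Scram A. Wnt2 and Wnt16 were listed at 0 in all 6 libraries. Map3k7, the TAK1 kinase and the 1 placed gene of 12 whose splicing ESRP proteins regulate, averaged 2793 ± 75.8 in shSLX4IP and 4257 ± 927 in Scram. It did not pass with all libraries (-0.58, adjusted p = 0.0831) and passed without Scram A (-0.77, adjusted p = 0.00132), while quantile normalization gave -0.08 (adjusted p = 0.871). The table counts genes, so splice forms were not measured.

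**Figure D5:**
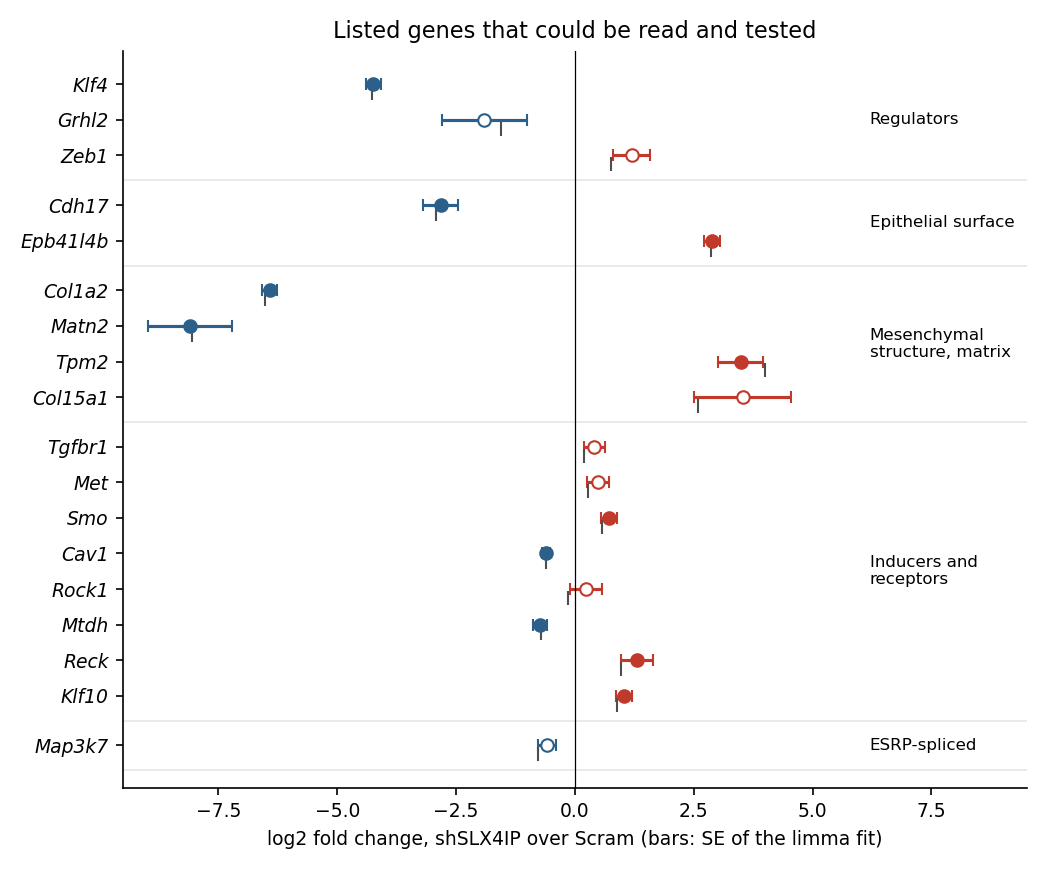
Log2 fold change of shSLX4IP over Scram for the 18 listed genes that were placed and tested, by role, with bars for the SE of the limma fit. Filled points passed the adjusted threshold, red is higher and blue lower in shSLX4IP, and the grey tick under each point is the value without Scram A. Within the matrix group Col1a2 and Matn2 fell while Tpm2 rose.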

How the data were processed

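RNA of 6 libraries, 3 shSLX4IP and 3 Scram, was measured by stranded poly(A) RNA-seq. The build GRCm38 (mm10) and the tools StringTie 2.1.7, STAR 2.7.7, fastp 0.19.5 and DESeq2 1.22.1 appear, without roles, in the submitters' processing notes. No annotation release or strand setting is stated there. In the deposited table each value is a normalised signal, a read count over a size factor of its library. Division by the value of 1 read gave whole reads, within 0.1, for 99.98% to 100% of values above 0. Columns carry letters and labels carry numbers, so letters only name libraries.

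GENCODE M21 (GRCm38) gave symbols, coordinates and exonic lengths for 52093 of 53647 identifiers without version. The release behind the identifiers differs from M21, since only 35 matched with their version. Placed segments are maximal runs of protein-coding genes along a chromosome, with 3 points for a mean of at least 1000 and -1 otherwise, and a score of at least 30. Their scores were 191, 65, 54 and 41, and the next was 18. All features of the mitochondrial chromosome were added to the placed set without a score.

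The test was limma 3.58.1 in R 4.3.3 with an intensity trend on log2(value + 1), which understates changes of low genes, 2-sided. edgeR 4.0.16, which called 712 features higher and 854 lower, and DESeq2 1.42.0 ran on recovered reads as alternatives. The fits were tested on simulated data with the same dispersion for all genes. No library was made to differ there beyond its size factor, so a library set apart as Scram A was is not covered. The members and lists were chosen with earlier results of these data known. Named genes are the members, the placed and tested listed genes, the 3 genes nearest in profile to each member of a mean of at least 50, and the 2 nearest protein-coding genes on each side, without Gm or Rik names.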

Additional observations from a re-analysis of the deposited data

How the results depend on the processing

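Klf4 and Grhl2 kept their direction and their side of the threshold in each alternative in which they were tested. The difference of Esrp1 kept its sign in 9 of 9, but these settings reuse the same few reads. The fit without the filter gives the same value by design, and it alone tested Esrp1 (limma adjusted p = 0.243). Zeb1 passed with quantile normalization (log2 fold change 1.35), with the exonic length trend removed (0.98), with DESeq2 (1.07) and with adjustment over placed features (1.19), and ran from 0.76 to 1.49 without 1 library. The features called higher were 1602 with DESeq2 and 433 to 1895 without 1 library, and those called lower 1624 and 410 to 1573, against 952 and 920. Among the fits without 1 library the counts were lowest without a shSLX4IP library and highest without Scram A, and without Scram C 489 were called lower. Of the listed genes 7 were called without the intensity trend and 6 to 14 without 1 library, against 11. Rock1 turned to -0.14 with the length trend removed and ran from -0.14 to 0.47 without 1 library. Virma turned to 0.42, Ints8 to 0.35 and Rad23b to 0.13 after quantile normalization, which moved the median of all features from 0.25 to -0.0028, and Virma ran from -0.21 to 0.021 without 1 library. The cause was not tested. Counts over all features were not computed for the alternatives defined on placed features only, and Esrp1 was below the filter of the rest. No paired analysis was possible because the columns carry letters that the labels do not tie to replicate numbers. With at most 10 reads in any library, what can be said of Esrp1 is limited by depth.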
